A study of Homo sapiens with 6 samples.

Results

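A panel of 10 genes of the transcriptional response to low oxygen was followed in 5637, a human bladder cancer cell line: ADM, VEGFA, BNIP3, PDK1, P4HA1, NDRG1, CA9, ANKRD37, EGLN3 and HIF1A. They were picked by gene symbol as known hypoxia genes, with earlier results of these data in view, and make up 10 of the 13271 genes in the deposited table. The 3 MAT1A libraries came from cells transfected with a plasmid carrying MAT1A, the gene of the S-adenosylmethionine synthetase that is typical of adult liver, and the 3 control libraries from cells transfected with an empty vector. Both groups were lipid-transfected at about 50% confluency and lysed 48 h later, and nothing in the labels says that either group was kept at reduced oxygen. No label ties a replicate to a culture of its own, and the p-values below therefore cover the spread among 6 libraries, some of which may be technical.

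The response to low oxygen is run by the hypoxia-inducible factors (HIFs), each a pair of an oxygen-labile alpha subunit, such as the product of HIF1A, and the stable partner encoded by ARNT. With oxygen present, prolyl hydroxylases of the EGLN family mark the alpha subunit, which the VHL protein then passes on for degradation, so that HIF-1α is controlled mainly as a protein and its targets report its activity better than its own mRNA. Those targets serve blood vessel growth (VEGFA, ADM), the turning of metabolism away from mitochondria (PDK1, BNIP3), acid export (CA9), collagen maturation (P4HA1) and feedback (EGLN3). In bladder tumours CA9 is widely used as a tissue marker of hypoxia.

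HIFs bind a short core, ACGTG or GCGTG, and the stretches of promoter that hold it are shown for 4 genes that were called lower and 2, CA9 and ANKRD37, that were not called. RefSeq promoter windows on GRCh38.p14, from 250 bases before to 50 bases after a start site, were taken for 8 of the 10 genes, 10 windows in all. NDRG1, which was called lower, and VEGFA are not among the 8, so the counts of panel windows leave them out. Their absence does not mean that they lack a promoter window or a core. Whether their promoters hold a core is not reported here, and the panel counts cover only part of the panel. Searched on both strands, ACGTG lay in 5 of the 10 windows (21.4% of all 35116 windows held it) and either core in 7 of 10 (48.4% of all windows). The sequences below are the 170 bases just before the start site, 5′ to 3′ on the gene's own strand, with each core in capitals (CACGT and CACGC are the cores on the opposite strand).
ADM (chr11:10304903-10305072, plus strand): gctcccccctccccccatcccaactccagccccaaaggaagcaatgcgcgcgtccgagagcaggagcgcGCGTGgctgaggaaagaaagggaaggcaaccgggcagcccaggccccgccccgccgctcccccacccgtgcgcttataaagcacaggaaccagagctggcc
BNIP3 (chr10:131981924-131982093, minus strand): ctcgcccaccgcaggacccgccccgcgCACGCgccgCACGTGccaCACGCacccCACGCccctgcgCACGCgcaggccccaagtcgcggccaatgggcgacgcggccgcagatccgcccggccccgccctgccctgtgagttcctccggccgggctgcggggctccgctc
P4HA1 (chr10:73096867-73097036, minus strand): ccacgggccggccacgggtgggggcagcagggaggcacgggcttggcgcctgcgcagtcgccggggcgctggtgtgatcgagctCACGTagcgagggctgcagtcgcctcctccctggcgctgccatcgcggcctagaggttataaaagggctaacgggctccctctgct
PDK1 (chr2:172555920-172556089, plus strand): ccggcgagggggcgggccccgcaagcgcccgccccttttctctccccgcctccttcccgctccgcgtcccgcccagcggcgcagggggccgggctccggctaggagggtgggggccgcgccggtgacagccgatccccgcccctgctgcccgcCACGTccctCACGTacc
CA9 (chr9:35673758-35673927, plus strand): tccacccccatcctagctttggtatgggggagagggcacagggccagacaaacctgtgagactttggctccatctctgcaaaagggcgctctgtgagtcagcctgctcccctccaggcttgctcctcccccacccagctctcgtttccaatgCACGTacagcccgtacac
ANKRD37 (chr4:185396671-185396840, plus strand): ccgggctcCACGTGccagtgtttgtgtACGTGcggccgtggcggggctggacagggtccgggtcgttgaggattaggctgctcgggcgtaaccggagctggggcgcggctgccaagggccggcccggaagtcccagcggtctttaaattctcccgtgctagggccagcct
BNIP3 held the densest group, with 2 ACGTG and 4 GCGTG matches, of which both ACGTG matches overlap in 1 CACGTG, a sequence that many other factors also bind and that 7.26% of all windows held. ANKRD37 held 3 ACGTG matches, 2 of which overlap in 1 CACGTG. ADM held a single GCGTG and no ACGTG in this window, and the window of EGLN3 held neither core. A window of HIF1A, which was not called either, held a GCGTG at position -204, outside the 170 bases that are shown for other genes. A match is a description of letters and says nothing about whether a factor was bound in these cells.

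Reads assigned to the 13271 listed genes came to 18.7 to 21.6 M in MAT1A libraries and 17.4 to 20.7 M in control libraries. They were recovered from the deposited values, which are reads on a CPM-like scale, and leave out reads of genes that were not listed. MAT1A itself stood at 1805, 1834 and 1917 in MAT1A libraries 1, 2 and 3, against 1.09, 0.253 and 4.54 in control libraries. All 7 epithelial markers looked for were listed, and 4 of them were called higher, as were 4.01% of all tested genes. Their summed values were 6904 to 7583 in MAT1A libraries and 6063 to 6303 in control libraries. Of 11 skeletal muscle markers all were listed and 10 were called lower, as were 7.4% of all tested genes. Their summed values were 86.4, 43.0 and 41.0 in MAT1A libraries 1, 2 and 3. In control libraries 1, 2 and 3 they were 443, 143 and 87.6. Of other markers, 3 of 7 fibroblast, 1 of 5 endothelial and 1 of 6 leukocyte genes were listed. Of the 3 fibroblast genes 1 was called lower. The summed fibroblast values were 121 to 128 in MAT1A and 143 to 259 in control libraries. The single endothelial and leukocyte genes stood at most at 1.13 and 1.66. In bulk libraries fewer cells of a type and less RNA per cell cannot be told apart. Neither the source of the muscle and fibroblast RNA nor its part in the results was tested. Values without control library 1 are given for some results only.

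A group of effector genes of the hypoxia response was lower in the MAT1A libraries. HIF1A, VEGFA and the low-level targets CA9, ANKRD37 and EGLN3 were not called. By limma on log2(value + 1), with Benjamini-Hochberg adjustment over all 12866 genes tested, 5 of the 10 genes were called lower (ADM, BNIP3, NDRG1, P4HA1 and PDK1), 0 were called higher, and 5 were not called at an adjusted p under 0.05. Over all tested genes 7.4% were called lower and 4.01% higher, 11.4% in all. The panel's count was 4 without control library 1, 3 without control library 2 and 3 with DESeq2 on recovered reads; that of the whole table, 1468, was 823 without control library 1 and 796 without control library 3. The falls were modest, from 15.2% to 27.6% by the ratio of group means. The median log2 change of the 10 genes was -0.24, beside 0.004 for all tested genes. Of the 10 changes, 8 lay below 0, and these 8 genes were lower in MAT1A in each of the 3 pairs of libraries that share a replicate number, as were 24.4% of all tested genes. In 5 genes (ADM, BNIP3, P4HA1, PDK1 and VEGFA) every MAT1A value lay below every control value, which held for 15.6% of all tested genes; in 0 did every MAT1A value lie above, where 14.7% of all tested genes did so.

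**Figure D1:**
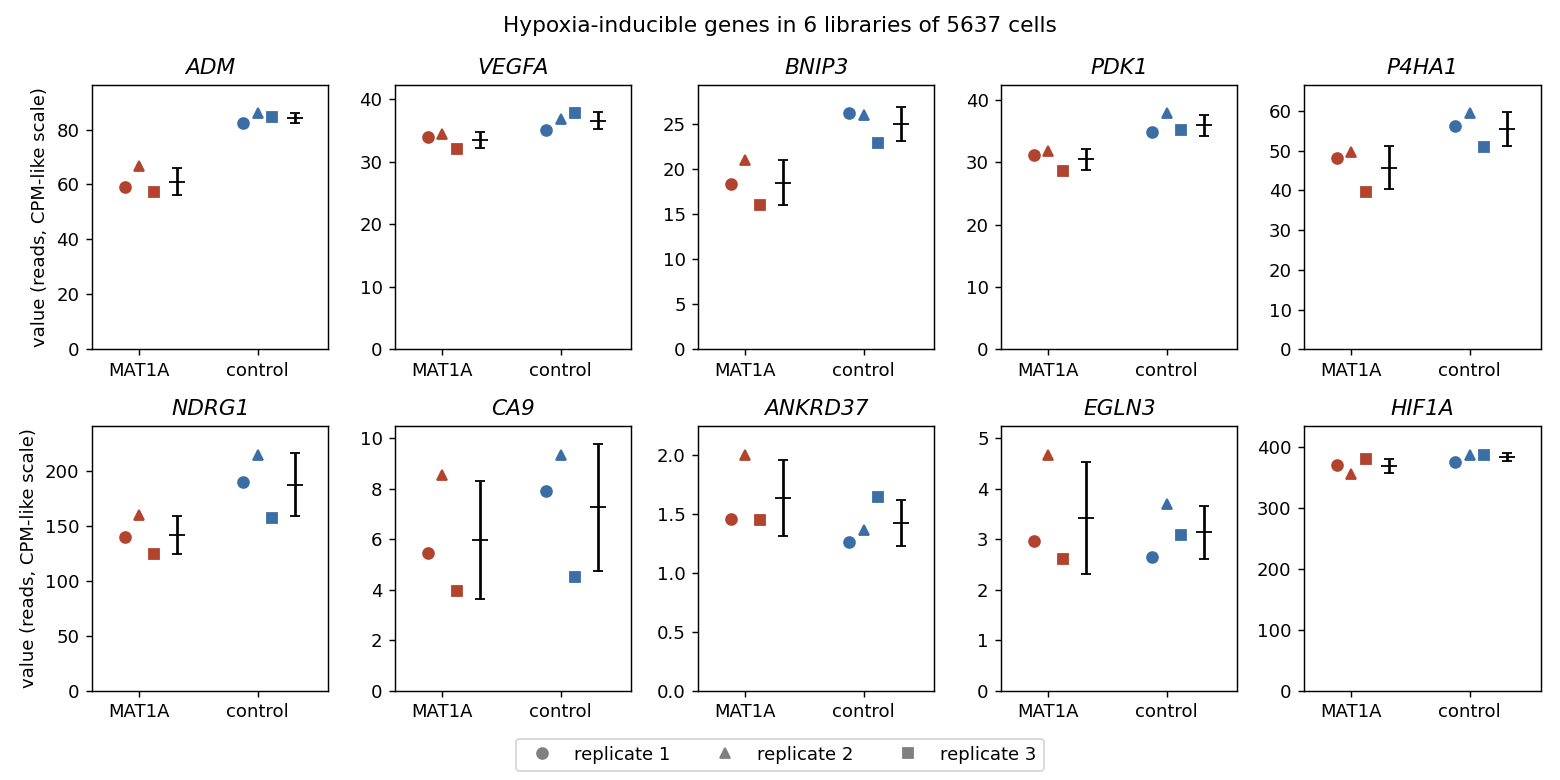
Values of the 10 genes (y axes from 0, reads on the deposited CPM-like scale) in each MAT1A library and each control library, with marker shapes for replicates 1, 2 and 3; bars are mean ± SD over 3 libraries. ADM at 57.1 to 66.6 in MAT1A against 82.2 to 85.9 in control is clear of its control values, while NDRG1 and CA9 spread widely and in the same order in both groups.

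Among the secreted ligands, ADM fell and VEGFA was not called. ADM, which encodes the vasodilator peptide adrenomedullin, lies on chromosome 11, positions 10304680 to 10307397 on the plus strand (GRCh38). Its values were 59.2, 66.6 and 57.1 in MAT1A libraries 1, 2 and 3, against 82.2, 85.9 and 84.6 in control libraries 1, 2 and 3. The groups did not overlap, and the gap between the highest MAT1A and the lowest control library was wider than the range within either group. Means were 61.0 ± 4.98 in MAT1A and 84.2 ± 1.86 in control (SD, n = 3 each), which is a difference of -0.46 ± 0.05 in log2 (SE; 95% interval -0.57 to -0.36; limma adjusted p = 7.82e-06). The call held when any 1 of the 6 libraries was left out, with adjusted p up to 0.000151.

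VEGFA encodes vascular endothelial growth factor A, the main driver of new vessel growth, on chromosome 6 at 43770184 to 43786487, plus strand. It stood at 33.96, 34.54 and 32.03 in MAT1A libraries 1, 2 and 3, against 35.1, 36.9 and 37.8 in control libraries. The groups did not overlap but were close together, with means of 33.5 ± 1.31 in MAT1A and 36.6 ± 1.36 in control (SD, n = 3 each). The log2 change of -0.12 (95% interval -0.23 to -0.02) did not pass adjustment (limma adjusted p = 0.13).

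In mitochondrial genes of the response, both BNIP3 and PDK1 fell. BNIP3 encodes an outer membrane receptor for the removal of mitochondria, and its gene lies on chromosome 10, positions 131966455 to 131982013 on the minus strand. It stood at 18.4, 21.1 and 16.1 in MAT1A libraries 1, 2 and 3, against 26.23, 26.03 and 22.87 in control libraries. The groups did not overlap, though MAT1A library 2 came close to control library 3. The log2 change was -0.42 ± 0.08 (SE; limma adjusted p = 0.00288). GENCODE 29 names 39 pseudogenes of BNIP3, of which 1 was listed, so short reads may have been shared among copies.

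PDK1 encodes a kinase that shuts off pyruvate dehydrogenase and so limits the flow of pyruvate into mitochondria. Its gene lies on chromosome 2, positions 172555373 to 172608669 on the plus strand. The values were 31.1, 31.8 and 28.6 in MAT1A libraries 1, 2 and 3, against 34.8, 37.9 and 35.2 in control libraries. Every MAT1A library was below every control library, and each group was tight, with a coefficient of variation of 5.51% in MAT1A and 4.64% in control. The log2 change was -0.23 ± 0.06 (SE; limma adjusted p = 0.0119); without control library 2 the call was lost (log2 change -0.19, adjusted p = 0.063).

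P4HA1 and NDRG1 also fell. P4HA1 encodes the catalytic subunit of collagen prolyl 4-hydroxylase, on chromosome 10 at 73007217 to 73096974, minus strand. It was 48.1, 49.6 and 39.5 in MAT1A libraries 1, 2 and 3, against 56.2, 59.4 and 50.9 in control libraries, so the groups were separated by only the narrow gap between MAT1A library 2 and control library 3. The log2 change was -0.28 ± 0.07 (SE; limma adjusted p = 0.0184), and the change was -0.18 without MAT1A library 3 (adjusted p = 0.0495). The call was lost without control library 1 (-0.27, adjusted p = 0.0729), without control library 2 (-0.23, adjusted p = 0.0873) and with DESeq2 on recovered reads (-0.28, adjusted p = 0.155).

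NDRG1, a cytoplasmic protein gene that responds strongly to hypoxia and to differentiation, lies on chromosome 8 at 133237171 to 133302022, minus strand. Its values were 140.2, 159 and 125 in MAT1A libraries 1, 2 and 3, against 190.3, 215 and 157 in control libraries. MAT1A library 2 lay just above control library 3, so the groups overlapped, yet within each replicate number the MAT1A library was the lower one. Means were 141 ± 17.4 in MAT1A and 188 ± 28.8 in control (SD, n = 3 each), or -0.40 ± 0.09 in log2 (SE; limma adjusted p = 0.00652). The call held when any 1 library was left out (adjusted p up to 0.0346) and was lost with DESeq2 on recovered reads (log2 change -0.41, adjusted p = 0.115).

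CA9 encodes a cell-surface carbonic anhydrase that acidifies the medium around hypoxic cells, and lies on chromosome 9 at 35673856 to 35681159, plus strand. It stood at 5.44, 8.53 and 3.96 in MAT1A libraries 1, 2 and 3, from 101, 166 and 85 reads, against 7.92, 9.35 and 4.49 in control libraries, from 138, 185 and 93 reads. Within each group the highest library was over 2-fold above the lowest (2.15-fold in MAT1A and 2.08-fold in control), and the groups overlapped. The log2 change of -0.24 had an interval from -0.69 to 0.20 and was not called (limma adjusted p = 0.497); leaving out 1 library at a time moved it between -0.51 and -0.02. CA9 shares 643 bases of exon with ARHGEF39 on the opposite strand, whose values were 14.6 to 15.2 in MAT1A and 13.5 to 15.5 in control libraries (log2 change 0.03, limma adjusted p = 0.847). Reads that lie within these shared bases cannot be given to either of the 2 genes without strand.

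ANKRD37 and EGLN3 were the rarest transcripts of the panel in reads. ANKRD37, an ankyrin repeat gene known as a HIF target (chromosome 4, 185396021 to 185400628, plus strand), had 27, 39 and 31 reads in MAT1A libraries 1, 2 and 3 (values 1.46, 2.004 and 1.45), against 22, 27 and 34 reads in control libraries (values 1.26, 1.36 and 1.64). EGLN3, the hypoxia-inducible prolyl hydroxylase gene (chromosome 14, 33924231 to 34462774, minus strand), had 55, 91 and 56 reads in MAT1A (values 2.96, 4.68 and 2.61), against 46, 73 and 64 in control (2.64, 3.69 and 3.09). In both genes the groups overlapped. The log2 changes were 0.12 (95% interval -0.16 to 0.40) for ANKRD37 and 0.07 (-0.24 to 0.39) for EGLN3, with limma adjusted p of 0.62 and 0.804, and that of EGLN3 was negative without MAT1A library 2 (-0.12) or without control library 1 (-0.02). That of ANKRD37 was 0.02 without MAT1A library 2 and 0.18 without control library 3. ANKRD37 shares 909 bases of exon with UFSP2 on the opposite strand, a gene at 13.0 ± 0.65 in MAT1A and 12.9 ± 0.12 in control (SD, n = 3 each).

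HIF1A, the gene of the oxygen-regulated subunit itself (chromosome 14, 61695513 to 61748259, plus strand), was the best measured of the 10, with 6542 to 8152 reads per library. It stood at 371, 357 and 380.0 in MAT1A libraries 1, 2 and 3, against 375, 387 and 388 in control libraries. MAT1A library 3 lay above control library 1, so the groups overlapped. The means of 369 ± 11.8 in MAT1A and 384 ± 7.09 in control (SD, n = 3 each) gave a log2 change of -0.06, with an interval from -0.12 to 0.01 (limma adjusted p = 0.285), and of 0.0022 once exon-length and GC trends were taken out of every library. Without MAT1A library 2 the change was -0.03. The lower bound of HIF1A (-0.122) lies closer to 0 than the upper bounds of ADM, BNIP3 and NDRG1. It is about level with the upper bound of P4HA1 (-0.126) and farther from 0 than that of PDK1 (-0.114). HIF1A, VEGFA, P4HA1 and PDK1 also share 47 to 445 exon bases with other annotated genes, which were not analysed here.

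**Figure D2:**
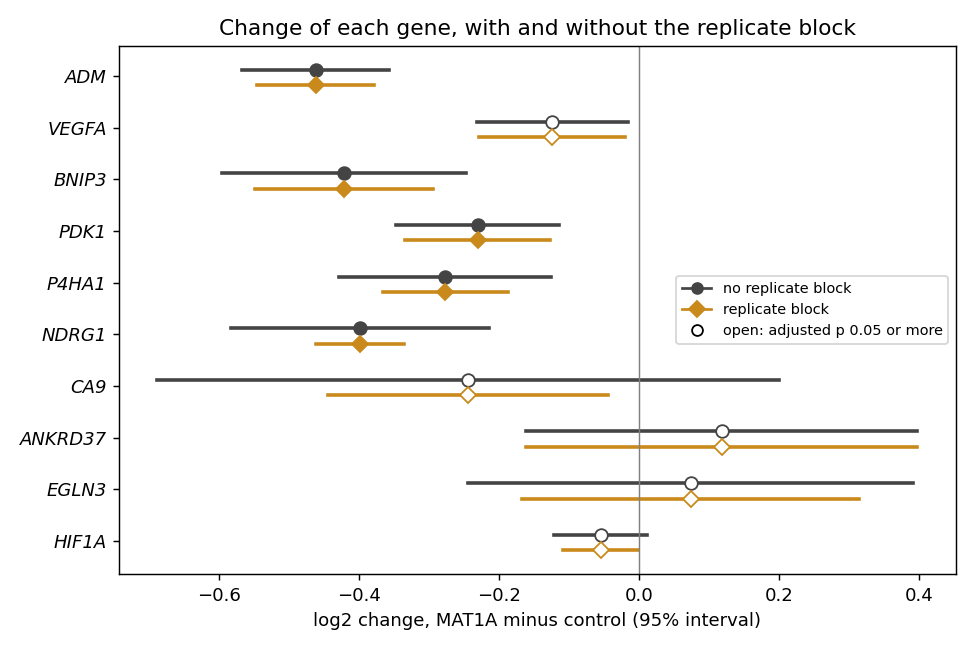
Log2 change of each gene (x axis, the MAT1A mean less the control mean of log2(value + 1)) with its 95% interval, without a replicate block (circles) and with the replicate number as a block (diamonds); filled markers passed an adjusted p under 0.05. ADM at -0.46 and NDRG1 at -0.40 are called in both fits, and the interval of NDRG1 narrows with the block while that of VEGFA hardly differs.

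The spread within each group was not alike across the panel, and for several genes it followed the replicate number. NDRG1, CA9 and P4HA1 were highest in library 2, intermediate in library 1 and lowest in library 3 in MAT1A and in control alike, an order that 4.55% of all tested genes shared. NDRG1 was 0.35 higher on the log2 scale in library 2 than in library 3 of the MAT1A group and 0.45 higher in the control group, beside a change with MAT1A of -0.40. For CA9 the same differences were 0.94 in MAT1A and 0.92 in control, beside a change with MAT1A of -0.24. For P4HA1 they were 0.32 and 0.22. In all, 7 of the 10 genes were higher in library 2 than in library 3 in both groups, against 29.2% of all tested genes.

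A test of the replicate number, chosen after these values were seen, asked whether its 2 terms in the blocked limma fit differed from 0. NDRG1 (adjusted p = 4.93e-06), CA9 (adjusted p = 0.000269) and P4HA1 (adjusted p = 0.0205) passed, 3 of 10 genes, where 0.793% of all tested genes did; NDRG1 ranked 5 among all genes. BNIP3 (adjusted p = 0.174), EGLN3 (adjusted p = 0.216), ADM (adjusted p = 0.4) and the other 4 did not. P4HA1 no longer passed without MAT1A library 1, MAT1A library 3 or control library 1. The count over all genes, 102, was 53 without MAT1A library 1, 21 without control library 1, 576 without control library 2 and 426 without control library 3. With 1 library left out, 1 replicate number keeps only 1 library, which its own term fits exactly. That makes these fits an unlike test, so their results do not measure how firm the passes are. Before the block, the residual SD of NDRG1 on the log2 scale was 0.202, larger than in 100% of the 500 genes nearest to it in mean. Those of CA9 and P4HA1 (0.476 and 0.146) were larger than in 99.8% and 99.4% of theirs. Genes that did not pass also spread widely: BNIP3 (0.151), EGLN3 (0.276) and ADM (0.084) exceeded 98.8%, 97.4% and 91.4% of theirs. For PDK1, HIF1A, ANKRD37 and VEGFA the shares were 67.2%, 54.4%, 45.2% and 38%. With the replicate number as a block the residual SD was 0.041 for NDRG1, 0.138 for CA9 and 0.050 for P4HA1. For BNIP3, EGLN3 and ADM it was 0.079, 0.164 and 0.069. VEGFA and HIF1A, in contrast, had residual SDs of 0.054 and 0.038 without the block, and these were not smaller with it (0.068 and 0.039). All these SDs come from the same values as the test of the replicate number, so they describe its result again and add no separate evidence.

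**Figure D3:**
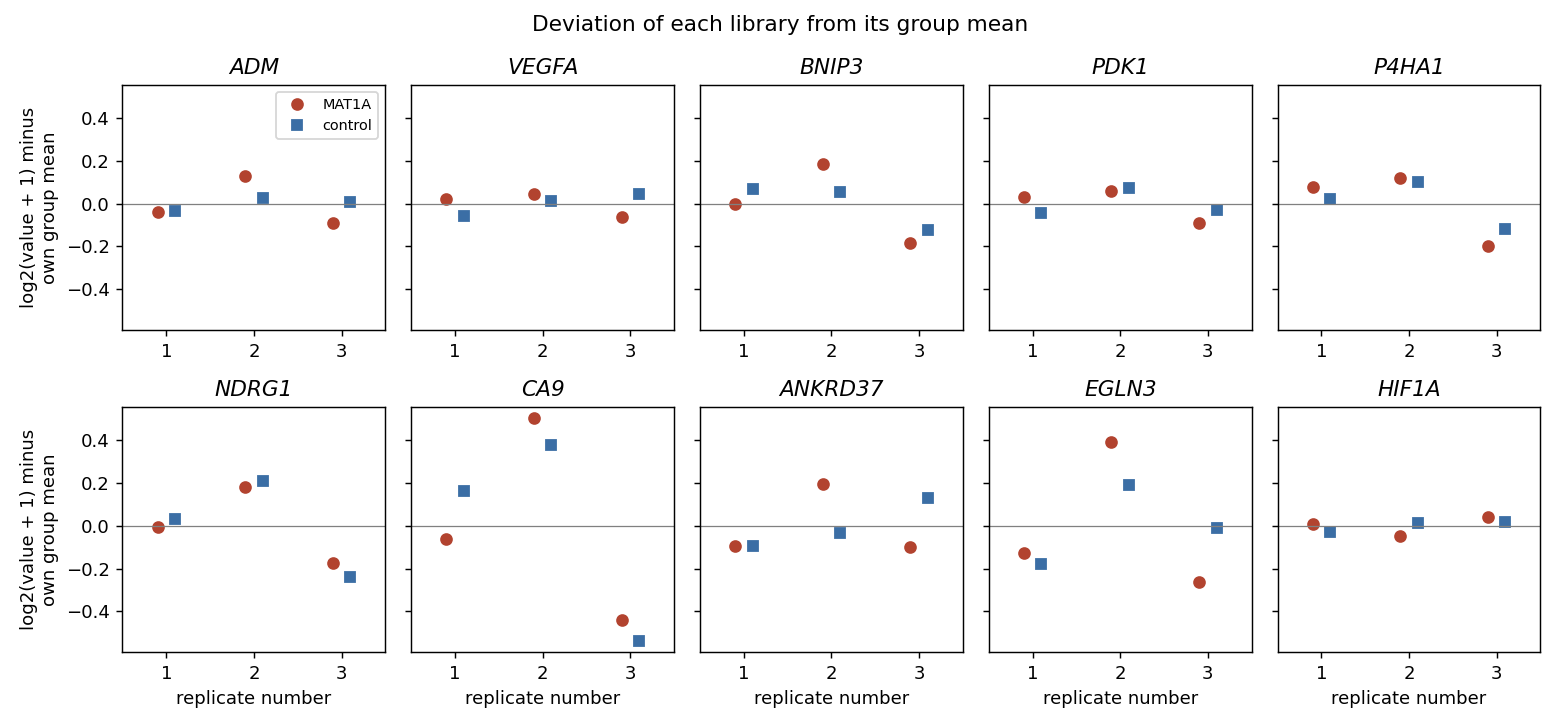
Deviation of each library from its own group mean on the log2(value + 1) scale (y axis) by replicate number (x axis), MAT1A as circles and control as squares. For NDRG1, CA9 and P4HA1 both groups are highest at number 2 and lowest at number 3; HIF1A stays near 0 throughout.

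With the block, the same 5 genes of the panel were called lower and again 0 higher, where 10.4% of all tested genes were called lower and 7.57% higher. In either direction 18.0% of all tested genes were called with the block (2310 genes), against 1468 genes without it. The standard error of NDRG1 was 0.030 with the block and 0.087 without it, that of CA9 was 0.096 with it and 0.21 without it, and CA9 remained uncalled (limma adjusted p = 0.0854). The titles do not say what a shared number stands for. The muscle markers also followed the number, but in another order: all 11 were highest in library 1 of both groups, and 0 of the 10 hypoxia genes were.

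Of the glycolytic HIF targets, 5 of 19 passed the test of the replicate number and 1 of 19 that of MAT1A against control. Of the 19 tested, 1 was called lower and 0 higher, against 11.4% of all tested genes called in either direction; the exception was the enolase gene ENO2, at 25.3 ± 1.35 in MAT1A and 31.2 ± 2.62 in control (SD, n = 3 each; log2 change -0.29, limma adjusted p = 0.00714), a call lost without control library 1 (adjusted p = 0.0519). With the replicate block 1 was called higher and 3 lower, where 7.57% and 10.4% of all tested genes were. The count of calls was 0 without control library 1 and 2 without MAT1A library 2, MAT1A library 3 or control library 2. The median log2 change of the 19 was 0.009. Yet 15 of the 19 were higher in library 2 than in library 3 in both groups, against 29.2% of all tested genes. The 5 that passed the test of the replicate number, which 0.793% of all tested genes did, were all among these 15. Named after their values were seen, PGK1, an enzyme of ATP-yielding glycolysis, stood at 796, 849 and 761 in MAT1A libraries 1, 2 and 3, against 849, 886 and 765 in control libraries (log2 change with MAT1A -0.05, adjusted p = 0.503; replicate number adjusted p = 0.00233 in limma). LDHA, the lactate dehydrogenase gene, stood at 1804, 2004 and 1742 in MAT1A libraries, against 1866, 1919 and 1725 in control libraries (log2 change 0.009, adjusted p = 0.926; replicate number adjusted p = 0.00277 in limma). The other 3 were TPI1, GAPDH and ENO1. With 1 library left out, the test of the replicate number is an unlike one, as said above. The count of 5 was 0 without MAT1A library 1 or without control library 1, 3 without MAT1A library 2, 10 without control library 2 and 8 without control library 3; GENCODE 29 names pseudogenes for each of these enzymes (62 for GAPDH, 6 for LDHA), so some of their reads are uncertain.

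**Figure D4:**
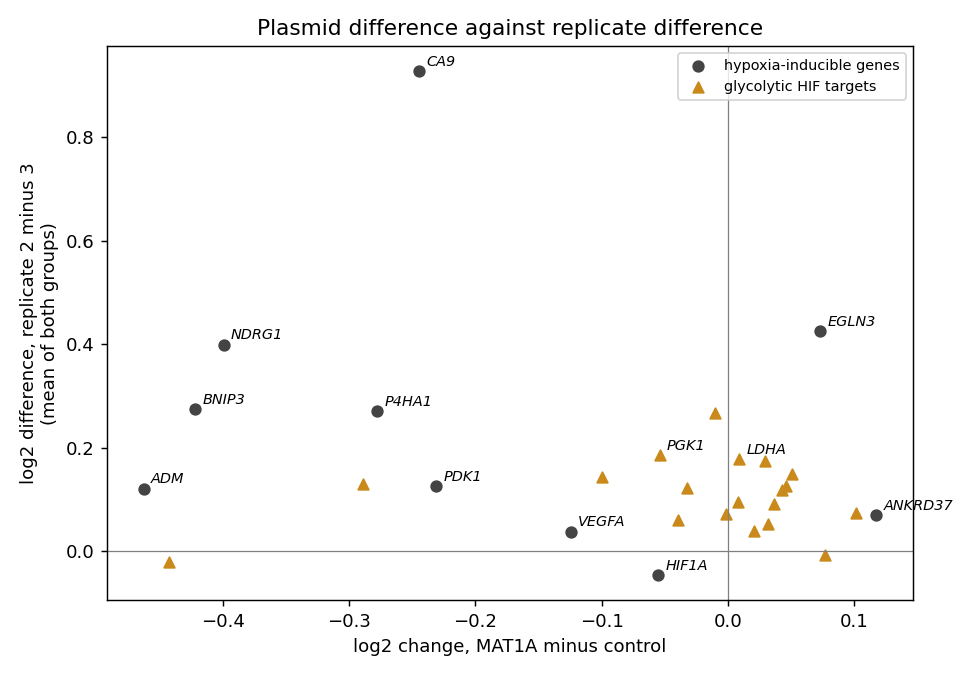
Difference between libraries 2 and 3, averaged over both groups (y axis, log2), against the log2 change of MAT1A minus control (x axis), for the 10 hypoxia-inducible genes (circles) and the 19 glycolytic HIF targets (triangles). CA9 stands high on the replicate axis, ADM is displaced mainly along the MAT1A axis, and PGK1 and LDHA sit near 0 on the x axis and above 0 on the y axis.

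Among the genes that sense oxygen and build the HIF complex, 4 of 19 others tested were called lower and 1 higher, with a median log2 change of -0.01, where 7.4% of all tested genes were called lower and 4.01% higher. CITED2, which encodes a protein that competes with HIF-1α for the coactivators p300 and CBP, fell to 28.7 ± 0.43 in MAT1A, against 52.7 ± 0.98 in control (SD, n = 3 each; log2 change -0.86 ± 0.05, SE; limma adjusted p = 1.05e-09). EGLN1, the main prolyl hydroxylase of HIF-1α in normal oxygen and itself a HIF target, fell to 38.9 ± 1.52 in MAT1A, against 50.8 ± 2.20 in control (log2 change -0.38, adjusted p = 5.68e-05). CUL2, the scaffold of the VHL ubiquitin ligase, fell by 0.13 on the log2 scale (adjusted p = 0.0353), and HSP90AA1, a chaperone gene of HIF-1α, rose by 0.11 (adjusted p = 0.0259). Both of these were lost without MAT1A library 1 or any 1 control library (adjusted p up to 0.148 for CUL2 and 0.15 for HSP90AA1). The other lower call, the coactivator gene CREBBP, named after its values were seen (log2 change -0.11, adjusted p = 0.0498), was lost when any 1 library was left out. With the replicate block 5 were called lower and 3 higher, where 10.4% and 7.57% of all tested genes were; without MAT1A library 1 or any 1 control library 2 were called in all.

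Of 36 other HIF targets tested, mostly outside glycolysis (2, PFKFB3 and PFKFB4, are also among the 19 glycolytic targets), 7 were called lower and 1 higher, where 7.4% and 4.01% of all tested genes were. The median log2 change was -0.03. The repressor genes BHLHE41 and BHLHE40, which serve the circadian clock as well as hypoxia, both fell. BHLHE41 stood at 2.40 ± 0.21 in MAT1A and 17.7 ± 0.31 in control (SD, n = 3 each; log2 change -2.46, limma adjusted p = 5.26e-12), and BHLHE40 at 41.6 ± 2.05 in MAT1A and 70.3 ± 3.63 in control (log2 change -0.74, limma adjusted p = 1.85e-08). IGFBP3, an insulin-like growth factor binding protein gene, went against the panel: it rose to 663 ± 61.5 in MAT1A, against 436 ± 37.2 in control (SD, n = 3 each; log2 change 0.60, limma adjusted p = 2.6e-06). IGFBP3 also followed the replicate number (adjusted p = 0.00015), with 656, 728 and 605 in MAT1A libraries 1, 2 and 3, against 452, 462 and 393 in control libraries.

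Of 8 other ligands and receptors of the VEGF and adrenomedullin families, 1 was called lower and 0 higher: VEGFC, the lymphatic growth factor, at 68.6 ± 1.73 in MAT1A and 84.0 ± 3.73 in control (SD, n = 3 each; log2 change -0.29, limma adjusted p = 0.00019). Of 16 tested paralogs and partners of BNIP3, PDK1, P4HA1, NDRG1 and CA9, 1 was called lower and 0 higher (1 and 3 with the replicate block, where 10.4% and 7.57% of all tested genes were; 3 calls in all without MAT1A library 3 and 2 without control library 2). Both counts stand beside 7.4% of all tested genes called lower and 4.01% higher. The gene called among the paralogs and partners was BNIP3L, also 1 of the 7 lower calls among other HIF targets, which encodes another mitophagy receptor of the same family, at 56.4 ± 2.18 in MAT1A and 67.1 ± 2.73 in control (log2 change -0.25, limma adjusted p = 0.00148). Both calls held when any 1 library was left out.

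**Figure D5:**
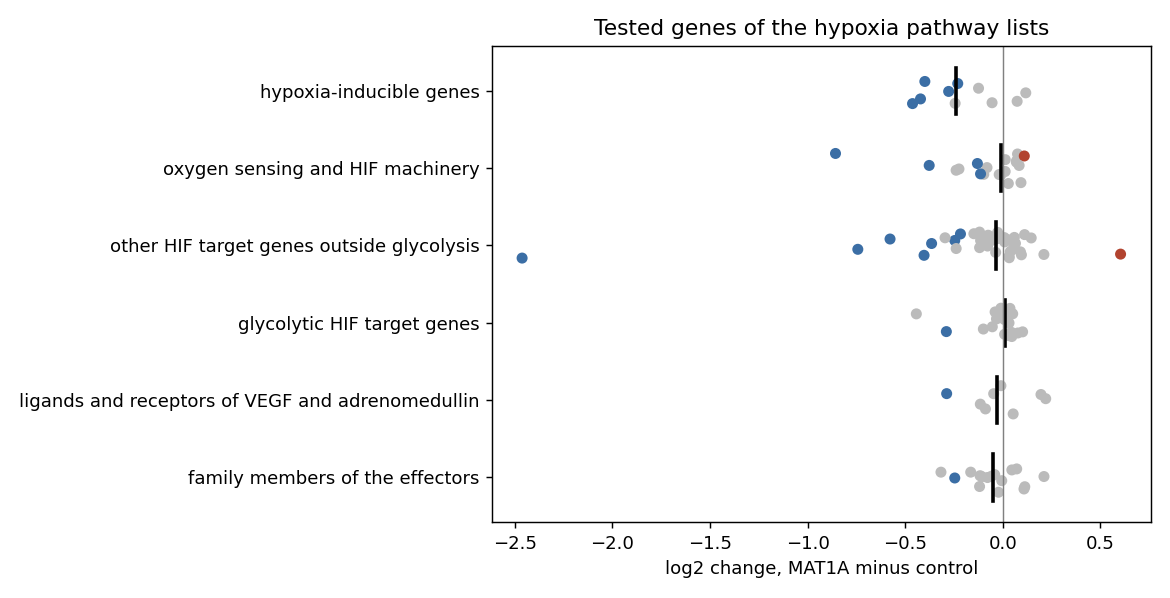
Log2 change (x axis, MAT1A minus control) of each tested gene of the panel and of 5 pathway lists without panel genes; blue points were called lower, red points higher and grey points were not called, and the black bar is the median. The panel has a median of -0.24 with 5 blue points, while the glycolytic targets gather at 0 with 1.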

How the data were processed

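RNA was sequenced from 6 libraries of 5637 cells, 3 MAT1A and 3 control, grouped by sample title. The authors deposited a signal per gene, that is reads divided by a scaled library size (CPM-like), in 1 table with 13271 genes; per the submitters' processing notes they used STAR 2.6.0c, featureCounts and edgeR with hg38, and which annotation and settings is not given here. In every column 100% of values were multiples of 1 step, to within 0.001 reads, which gave back the reads; in 3 columns the lowest value above 0 is several reads, so that a simpler search from the lowest value finds no step there. Count tests on these reads were therefore only alternatives. A floor of 3 reads corresponds to 0.140 to 0.172 on the deposited scale and covers counting error only.

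Because the table held scaled values and not counts, limma 3.58.1 (R 4.3.3) with an intensity trend was run on log2(value + 1) over the 12866 genes that reached 1 in 3 or more libraries, with Benjamini-Hochberg adjustment over all of them; a pseudocount of 1 understates changes of low genes. All 10 panel genes passed the filter. The libraries were sequenced with 36-cycle reads from a kit that does not keep strand. Pairs of libraries of the same group differed by more than sampling noise (chi-square per degree of freedom 1.86 to 4.39). Deviations from the group mean correlated between same-numbered libraries at 0.25, 0.18 and 0.19, each over 0.1. Between libraries of different numbers they were -0.17 to -0.02, and centring on the group mean ties all these values to one another. The numbers were taken as pairing the libraries. That pairing comes from the same data as the replicate block and the test of the replicate number, and the main fit does not use it. Positions are from GENCODE release 29.

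The members, lists, motif and tests were chosen with earlier results of these data known. Named were all 10 members, MAT1A, exon-sharing genes, and up to 3 called genes per direction of each of 5 pathway lists; any other gene is said to have been named with its values in view. A gene that the rule names is not reported here. Alternatives were 3 scalings, edgeR 4.0.16, DESeq2 1.42.0 and limma-voom on recovered reads, 2 filters, a pseudocount of 0.1, the replicate block, removal of length and GC trends, and leaving out each library.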

Additional observations from a re-analysis of the deposited data

How the results depend on the processing

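The 5 lower calls of the panel held under 3 scalings, edgeR and limma-voom on recovered reads, both other filters, a pseudocount of 0.1, the replicate block and the removal of length and GC trends. They were 3 with DESeq2 on recovered reads, and between 3 and 5 when 1 library was left out (3 without control library 2, 4 without control library 1); 0 were called higher under any of the 18 settings. Of 178 values of single panel genes under these settings, 168 kept their direction and side of the threshold, 5 lost the call, 1 gained it (VEGFA with length and GC trends removed and the replicate block, log2 change -0.145, adjusted p = 0.0382) and 4 changed sign: EGLN3 without MAT1A library 2 (-0.122) and without control library 1 (-0.016), in a range up to 0.2045, and HIF1A with length and GC trends removed, with and without the replicate block (0.0022 in both). The filter of at least 5 removes ANKRD37 and EGLN3. Of all tested genes 1468 were called, 957 with DESeq2, 2310 with the replicate block, 2530 with the block and length and GC trends removed, and 796 to 1658 when 1 library was left out (823 without control library 1 and 796 without control library 3).

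In the list of oxygen sensing genes 5 were called, 3 with DESeq2, 8 with the replicate block and 2 to 5 without 1 library. Of other HIF targets 8 were called, 7 with DESeq2, 11 with the block and 13 with the block and length and GC trends removed. Without 1 library 6 to 10 were called (6 without control library 2). Of glycolytic targets 1 was called, 4 with the block, 3 with length and GC trends removed, 4 with both, and 0 to 2 without 1 library. Of the family members 1 was called, 2 each with limma-voom, the filter of at least 5 and a pseudocount of 0.1, 4 with the block, 3 with length and GC trends removed, 5 with both, and 1 to 3 without 1 library. The causes were not tested. The replicate block changed no call of a panel gene.

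For the test of the replicate number, which, with its alternatives, was chosen after seeing the data, 102 genes passed over the whole table, 21 to 576 without 1 library (21 without control library 1, 53 without MAT1A library 1, 576 without control library 2 and 426 without control library 3). Of the panel 3 passed, and 2 to 4 without 1 library. Of glycolytic targets 5 passed, 3 with library size taken without MAT1A, 3 with length and GC trends removed and 0 to 10 without 1 library; of other HIF targets 4 passed, and 2 to 4 without 1 library. Without 1 library, 1 replicate number keeps only 1 library, so those counts come from an unlike test. Counting error limits ANKRD37, with 22 to 39 reads a library, more than any other gene of the panel.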

Other observations

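The replicate number was also followed by other HIF targets, genes named here after their values were seen. Of the 36 tested, 4 passed the limma test of the replicate number (0.793% of all tested genes did), and all 4 were higher in library 2 than in library 3 of both groups: IGFBP3, FAM162A, DDIT4 and LOXL2. The count was 2 without MAT1A library 1, MAT1A library 3 or control library 1. With a library left out the test is an unlike one, as said above. FAM162A, a mitochondrial HIF target, stood at 46.5, 52.7 and 42.6 in MAT1A libraries 1, 2 and 3, against 46.2, 52.5 and 39.7 in control libraries (limma replicate number adjusted p = 0.00277). Its log2 change with MAT1A was 0.04 (limma adjusted p = 0.817). DDIT4, an inhibitor of mTOR complex signalling induced by hypoxia, stood at 34.3, 40.0 and 26.2 in MAT1A libraries, against 27.7, 31.4 and 26.3 in control libraries (replicate number adjusted p = 0.0116 in limma). Its log2 change with MAT1A was 0.21 (adjusted p = 0.217), and with the replicate block it was called higher (adjusted p = 0.0171), against the direction of the panel.

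Of the 102 genes that passed the test of the replicate number, 49 were higher in library 2 than in library 3 of both groups. All 11 skeletal muscle markers looked for were among the 102, and each was highest in library 1 of both groups. In the lists of oxygen sensing genes, of VEGF and adrenomedullin ligands and receptors, and of family members, 0 genes other than panel genes passed.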
